A study of Mus musculus with 6 samples.

Results

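The cardiac myosin mRNAs were followed across 6 mouse tissues by ribosome profiling (Ribo-seq), in which the stretches of mRNA that ribosomes shield from RNase I are sequenced. The group held 8 of the 18437 mRNAs listed in any table, chosen by gene symbol: the heavy chains Myh6, Myh7 and Myh7b, the light chains Myl2, Myl3, Myl4 and Myl7, and the thick-filament protein gene Mybpc3. The heart and lung, the kidney and brain, and the colon and small intestine were all taken at 4 weeks of age from wild-type C57BL/6J mice without treatment, and each tissue gave 1 library. The labels give neither the chambers of the heart that were sampled nor the number of animals, and no test between libraries was possible. Values are RPKM, the reads on the coding sequence (CDS) scaled to the length of the CDS and to the reads on all CDSs of the library, and the libraries held between 4504853 and 10635031 such reads.

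Cardiac myosin is a hexamer in which a pair of heavy chains carries the motor, and each heavy chain binds an essential and a regulatory light chain. In the mouse, Myh6 encodes the fast alpha heavy chain of the adult heart, and Myh7 the slower beta heavy chain of the fetal ventricle and of slow skeletal muscle. Myl2 and Myl3 encode the regulatory and essential light chains of the ventricle, and Myl7 and Myl4 those of the atrium. Mybpc3 encodes cardiac myosin-binding protein C, which sits on the thick filament and modulates the cross-bridges, and Myh7b is an ancient relative of the heavy chains with little protein in the adult heart.

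Because the authors left out reads that aligned to more than 1 mRNA, the resemblance of Myh6 and Myh7 bears on every value of these genes. Both lie on the minus strand of chromosome 14 of GRCm39, Myh6 at chr14:55179367-55205887 and Myh7 at chr14:55208141-55232084, 2253 nt apart. The other members are spread over the genome, Myh7b at chr2:155453096-155476234 and Mybpc3 at chr2:90948489-90966861, Myl2 at chr5:122238848-122251545, Myl3 at chr9:110570929-110599396, Myl4 at chr11:104440903-104486603 and Myl7, on the minus strand, at chr11:5845449-5848792. The CDSs of Myh6 and Myh7 shared an identical run of 245 nt. Windows of 29 nt, about the size of a ribosome footprint, are shown from both mRNAs, 5′ to 3′, to illustrate which footprints can and cannot be assigned. The first pair comes from that run (Myh6 CDS positions 4246 to 4274, exon 30, chr14:55186154-55186182, and Myh7 CDS positions 4240 to 4268, exon 32, chr14:55212776-55212804), the second pair differs at 1 base (CDS positions 212 to 240 of both, exon 4, chr14:55201458-55201486, and exon 5, chr14:55229802-55229830), and the third at 6 bases (CDS positions 49 to 77 of both, exon 3, chr14:55202841-55202869, and exon 4, chr14:55230254-55230282). Capitals mark the bases that differ.
Myh6, identical window: ctggagaagaccaagcacaggctgcagaa
Myh7, identical window: ctggagaagaccaagcacaggctgcagaa
Myh6, window with 1 difference: tAaaggaggaccaggtgatgcagcagaac
Myh7, window with 1 difference: tGaaggaggaccaggtgatgcagcagaac
Myh6, window with 6 differences: cgAaagtcAgagaaggaACgCctAgaggc
Myh7, window with 6 differences: cgGaagtcTgagaaggaGAgGctGgaggc

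Of the positions in the CDS, 64.5% in Myh6 and 64.4% in Myh7 had a 29-nt window that occurred once among the reference mRNAs. Of the 2063 shared positions of Myh6, 2049 were shared with Myh7. The other 6 members were nearly free of such sequence, with 99.6% unique positions in Myh7b, 99.8% in Myl3 and Myl4, and 100% in Myl2, Myl7 and Mybpc3. A footprint from a shared position is absent from the table, so the RPKM of Myh6 and Myh7 understates their density relative to the other members while leaving the ratio of Myh6 to Myh7 nearly untouched. A further 21.4% of the windows of Myh7 differed from a window of Myh6 at 1 base only. How many reads of Myh6 with a sequencing error were counted as Myh7 was not tested.

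**Figure D1:**
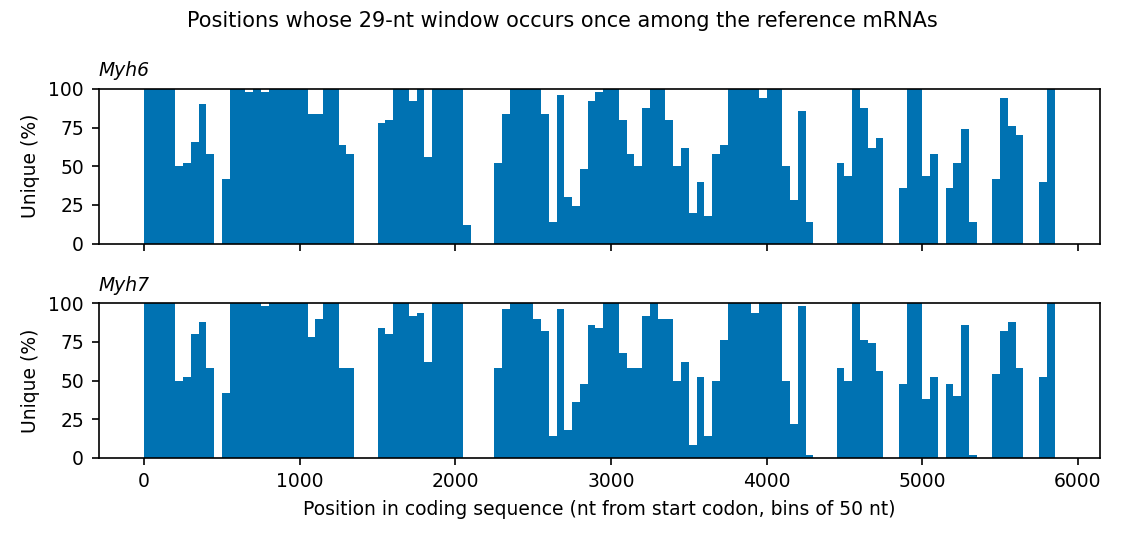
Percent of positions in each 50-nt bin of the Myh6 (top) and Myh7 (bottom) coding sequence whose 29-nt window occurs once among the reference mRNAs, against the distance from the start codon in nt. The gaps, where no position is unique, fall at nearly the same places in both genes, and 64.5% and 64.4% of positions are unique overall.

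Each heavy chain gene also carries a miRNA in an intron on its own strand. By the GRCm39 annotation, Mir208a lies in intron 29 of Myh6 (chr14:55186517-55186599), Mir208b in intron 31 of Myh7 (chr14:55213157-55213233) and Mir499 in intron 19 of Myh7b (chr2:155464800-155464878). The mature arms with related seeds are printed to show what the 3 hosts share beyond the protein they encode, with the seed (bases 2 to 8) in capitals. The sequences come from RefSeq (GRCm38.p6).
mmu-miR-208a-3p: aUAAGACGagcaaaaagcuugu
mmu-miR-208b-3p: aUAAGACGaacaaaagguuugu
mmu-miR-499-5p: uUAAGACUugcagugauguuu
The seeds of miR-208a-3p and miR-208b-3p were the same, and that of miR-499-5p matched them at 6 of 7 bases. Ribo-seq does not measure miRNAs, and the values below are those of the host mRNAs.

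Before the levels are compared, the labels need a caution. The heart was checked with 12 cardiac muscle genes and the other tissues with 3 marker genes each. For lung and heart, these genes peaked under the matching label. The summed RPKM of the kidney markers was 18523 in the colon-labelled library against 15.8 in the kidney-labelled one, and that of the colon markers 3288 in the kidney-labelled library against 1.72 in the colon-labelled one. The brain markers summed to 818 RPKM in the small-intestine-labelled library against 25.3 in the brain-labelled one, and the small intestine markers to 3863 in the brain-labelled library against 89.1 in the small-intestine-labelled one. These 4 libraries are therefore named by label only. All 12 cardiac muscle genes, among them the troponins Tnnt2 and Tnni3 and the transcription factor gene Nkx2-5, were at least 10-fold higher in the heart-labelled library than in any other. The share was 1.04% over all mRNAs with at least 10 reads in any library. Comparisons between the libraries labelled heart and lung do not use the other 4.

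In the heart-labelled library Myl2, Myl3, Myh6, Myl7 and Myl4 ranked 6, 8, 18, 21 and 26 among all mRNAs by RPKM, while Mybpc3 ranked 214, Myh7 3927 and Myh7b 5330. Together the 8 members took 6.38% of its reads (95% Wilson interval 6.36 to 6.39), and Myh6 alone took 3.85%. The share was 0.106% in the lung-labelled library, 0.0423% in the colon-labelled one, 0.0129% in the small-intestine-labelled one, 0.00841% in the kidney-labelled one and 0.00112% in the brain-labelled one. All 8 had reads in the libraries labelled heart, kidney, lung and small intestine, 7 in the colon-labelled one and 6 in the brain-labelled one. Intervals here and below cover counting error only, since PCR copies of a read are not independent molecules and each tissue has a single library. In bulk tissue, fewer cardiac muscle cells and less of an mRNA per cell cannot be told apart.

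Each member was highest in the heart-labelled library. Of the 8, 5 were at least 10-fold higher there than in the highest of the other 5 libraries, namely Myh6, Myl2, Myl3, Myl7 and Mybpc3, against 1.04% of the 15202 mRNAs with at least 10 reads in any library. The median fold of all these mRNAs was 0.251. Set against the lung-labelled library alone, 6 of 8 were past 10-fold, with Myh7b added, against 8.76% of all mRNAs. The 3 members that missed the 10-fold mark were Myl4 (8.63-fold over the lung-labelled library), Myh7b (3.28-fold over the small-intestine-labelled one) and Myh7 (1.78-fold over the lung-labelled one, 95% interval 1.58 to 2.00).

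**Figure D2:**
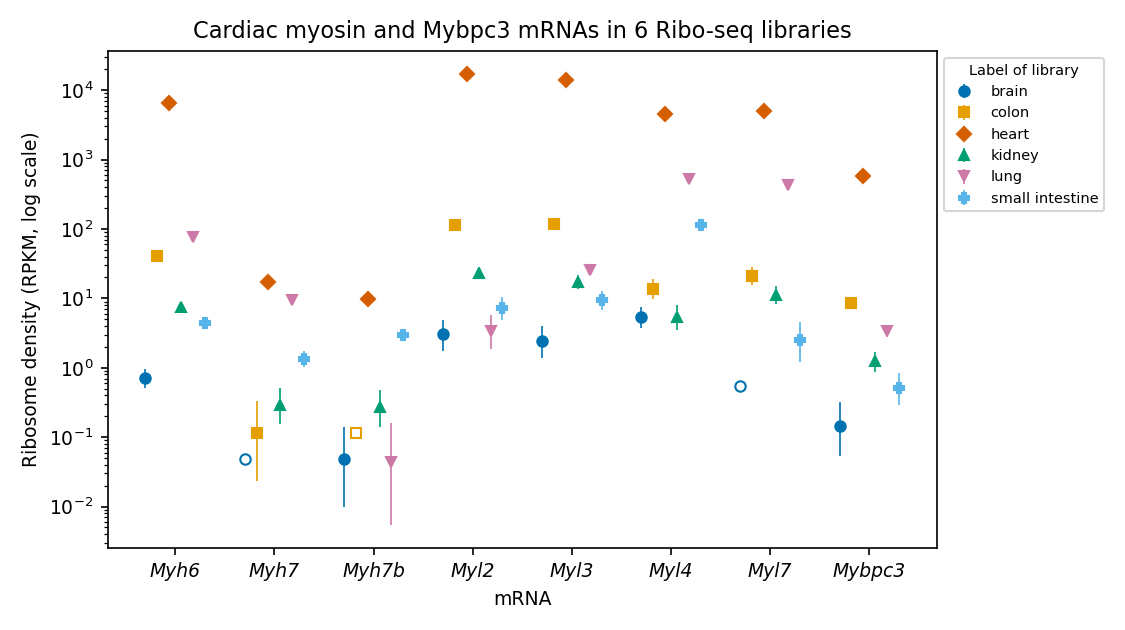
Ribosome density (RPKM, log scale) of the 8 mRNAs in the 6 libraries, 1 point per library, with 95% Poisson intervals of the read count. Open symbols stand at the RPKM of 3 reads for an mRNA with no reads. The heart-labelled library is highest for every mRNA, and the gap to the next library is smallest for Myh7, 1.78-fold.

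Myh6, the alpha heavy chain, had 6616 RPKM in the heart-labelled library (95% Poisson interval 6593 to 6639), from 314778 reads, which placed it 18th among all mRNAs. It had 77.1 RPKM in the lung-labelled library, 41.3 in the colon-labelled one, 7.58 in the kidney-labelled one, 4.41 in the small-intestine-labelled one and 0.712 in the brain-labelled one. The heart-labelled library thus stood 85.8-fold above the next, and no interval of 1 library overlapped that of another.

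Myh7, the beta heavy chain, had 17.0 RPKM in the heart-labelled library (15.9 to 18.2), from 809 reads. It had 9.58 RPKM in the lung-labelled library (8.70 to 10.5), 1.35 in the small-intestine-labelled one, 0.295 in the kidney-labelled one, from 13 reads, and 0.115 in the colon-labelled one, from 3 reads. The brain-labelled table lacked it, and 3 reads there would be 0.0486 RPKM. Libraries labelled heart and lung were the high ones, and their difference was the smallest between the top libraries of any member.

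Myh7b had 9.88 RPKM in the heart-labelled library (9.01 to 10.8) and 3.01 in the small-intestine-labelled one (2.52 to 3.57), from 134 reads. It had 0.272 RPKM in the kidney-labelled library, from 12 reads, 0.0484 in the brain-labelled one, from 3 reads, and 0.0444 in the lung-labelled one, from 2 reads, and it was not listed in the colon-labelled one. The small-intestine-labelled library is the one that carried the brain markers. The lung-labelled library, with 2 reads of Myh7b, was near the bottom for this heavy chain and second for the other heavy chains.

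In the heart-labelled library, Myh6 exceeded Myh7 by 388-fold in RPKM (exact 95% interval 363 to 417), so that Myh7 made up 0.257% of the density on the pair. In the lung-labelled library the ratio was 8.05 (7.28 to 8.91), with Myh7 at 11.1% of the pair. The ratio in the heart-labelled library was 48.3 times that in the lung-labelled library, and the intervals were far apart, but with 1 library each no test of the difference was possible. The ratio was 25.7 (14.8 to 48.7) in the kidney-labelled library and 3.26 (2.43 to 4.43) in the small-intestine-labelled one. In the colon-labelled library it was 360, with an interval from 123 to 1747 that held the value of the heart-labelled library. In the brain-labelled library Myh6 had 44 reads and Myh7 none, which puts the lower limit of the ratio at 11.4.

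The ventricular regulatory light chain Myl2 had the highest density of all members, 17347 RPKM in the heart-labelled library (17223 to 17471), sixth among all mRNAs. It had 113 RPKM in the colon-labelled library, 23.5 in the kidney-labelled one, 7.18 in the small-intestine-labelled one, 3.43 in the lung-labelled one, from 14 reads, and 3.03 in the brain-labelled one. The lung-labelled library was thus among the lowest for Myl2, with an interval (1.88 to 5.75) that overlapped that of the brain-labelled library (1.76 to 4.85).

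The ventricular essential light chain Myl3 followed with 13906 RPKM in the heart-labelled library (13803 to 14010), eighth among all mRNAs. It had 117 RPKM in the colon-labelled library, 26.0 in the lung-labelled one, 17.2 in the kidney-labelled one, 9.40 in the small-intestine-labelled one and 2.46 in the brain-labelled one. Unlike Myl2, it was higher in the lung-labelled library than in the kidney-labelled one, with adjacent intervals (21.6 to 31.0 and 13.7 to 21.5).

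The atrial regulatory light chain Myl7 had 4983 RPKM in the heart-labelled library (4917 to 5050). It had 426 RPKM in the lung-labelled library (406 to 447), from 1729 reads, 21.1 in the colon-labelled one, 11.3 in the kidney-labelled one and 2.49 in the small-intestine-labelled one. The brain-labelled table lacked an entry for it, and 3 reads there would be 0.537 RPKM. The libraries labelled heart and lung stood above the others, the latter by 20.2-fold over the next.

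The atrial essential light chain Myl4 had 4547 RPKM in the heart-labelled library (4487 to 4608), 527 in the lung-labelled one (506 to 549), from 2358 reads, and 113 in the small-intestine-labelled one (103 to 123), from 499 reads. It had 13.8 RPKM in the colon-labelled library, 5.47 in the kidney-labelled one and 5.36 in the brain-labelled one, and the intervals of the last pair overlapped. In the small-intestine-labelled library, where Myl4 came next after those labelled heart and lung, its regulatory partner Myl7 had 10 reads.

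Ventricular exceeded atrial light chains in the heart-labelled library. The ratio of Myl2 to Myl7 was 3.48 (exact 95% interval 3.43 to 3.53) and that of Myl3 to Myl4 was 3.06 (3.01 to 3.11), so that the atrial chains made up 22.3% and 24.6% of the density on their pairs. The order was turned in the lung-labelled library, where the ratios were 0.00805 (0.00439 to 0.0135) and 0.0494 (0.0408 to 0.0592), and the atrial chains made up 99.2% and 95.3%. For Myl2 to Myl7 the ratio was above 1 in each of the other libraries, between 2.08 (1.44 to 3.03) in the kidney-labelled one and 5.33 (3.93 to 7.36) in the colon-labelled one, with no reads of Myl7 in the brain-labelled one. For Myl3 to Myl4 it was above 1 in the libraries labelled colon (8.49, 6.00 to 12.3) and kidney (3.15, 1.98 to 5.21), and below 1 in those labelled brain (0.459, 0.236 to 0.857) and small intestine (0.0834, 0.0598 to 0.114).

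**Figure D3:**
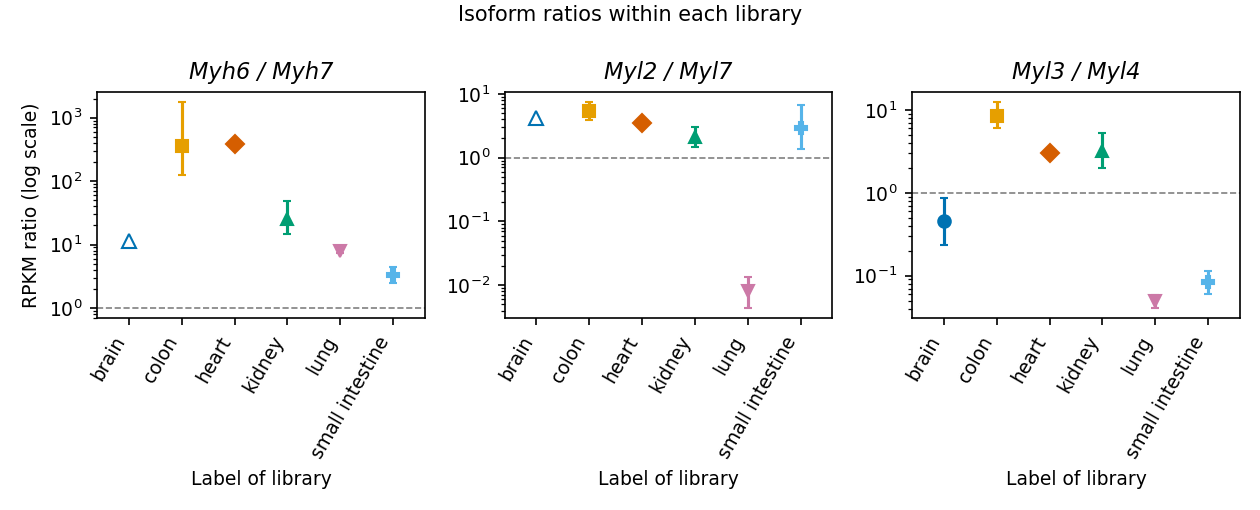
RPKM ratio (log scale) of Myh6 to Myh7, Myl2 to Myl7 and Myl3 to Myl4 within each library, with exact 95% intervals of counting error; open triangles are lower limits where the second mRNA had no reads, and the dashed line marks equal density. The heart-labelled library sits at 388, 3.48 and 3.06, and the lung-labelled one at 8.05, 0.00805 and 0.0494.

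Mybpc3, the myosin-binding protein, had 577 RPKM in the heart-labelled library (569 to 586), from 18110 reads. It had 8.45 RPKM in the colon-labelled library, 3.37 in the lung-labelled one, 1.24 in the kidney-labelled one, 0.512 in the small-intestine-labelled one and 0.147 in the brain-labelled one. It was 68.3-fold above the next library, and the order of the libraries was that of Myl3.

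Within the heart-labelled library the levels, which are per length of CDS, ran in the order Myl2, Myl3, Myh6, Myl7, Myl4, Mybpc3, Myh7 and Myh7b, and no neighbours in this order had overlapping counting intervals. The chains could be summed by their place in the hexamer. The regulatory light chains Myl2 and Myl7 summed to 22330 RPKM, the essential light chains Myl3 and Myl4 to 18453 RPKM and the heavy chains to 6643 RPKM. The regulatory chains thus had 1.21 times the density of the essential chains and 3.36 times that of the heavy chains. The hexamer holds the chains in equal numbers, but density on mRNA is not an amount of protein, which was not measured. When the length was counted over unique positions only, the heavy chains rose to 10292 RPKM and the ratio of regulatory to heavy chains fell to 2.17. Mybpc3 stood at 0.0869 of the density of the heavy chains, or 0.0561 over unique positions. In the lung-labelled library the sums were 429 RPKM for regulatory, 553 for essential and 86.7 for heavy chains, so that the essential chains there had 6.37 times the density of the heavy chains, against 2.78 in the heart-labelled library.

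Mouse lung is known to hold a sleeve of cardiac muscle around the pulmonary veins, and the members were set against other cardiac genes in the lung-labelled library. The part of such cells in these values was not tested. Of the 8 members, 3 (Myh7, Myl4 and Myl7) were at least 2-fold higher there than in any of the libraries labelled brain, colon, kidney and small intestine, against 12.5% of all mRNAs, and Myh6 reached 1.87-fold. As a percent of its level in the heart-labelled library, Myl4 stood at 11.6%, Myl7 at 8.55%, Myh6 at 1.17%, Mybpc3 at 0.585%, Myl3 at 0.187% and Myl2 at 0.0198%. Myh7 stood at 56.3% and Myh7b, from 2 reads, at 0.449%. The members therefore did not keep the proportions they had in the heart-labelled library.

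The 12 other cardiac muscle genes had a median of 0.854% of their heart-labelled level in the colon-labelled library, which carried the kidney markers. In the lung-labelled library their median was lower, at 0.503%, so a low level was not particular to that library. They ran from no reads for Nkx2-5, which had 249 in the heart-labelled library, to 6.26% for Nppa, the gene of atrial natriuretic peptide. Nppb, from 2 reads, stood at 0.0219%, near Myl2. The troponins lay close to Myh6, with Tnnt2 at 0.927%, Tnnc1 at 0.817% and Tnni3 at 0.644%. Of the 6 atrial genes listed, which include Myl4 and Myl7, Nppa had 207 RPKM in the lung-labelled library, whereas Bmp10, a growth factor gene of the atrium, had 1 read, and Sln and Mybphl had none. In the heart-labelled library Bmp10 had 1735 reads, Sln 207 and Mybphl 183. Of the 6 ventricular genes, which include Myl2 and Myl3, Irx4, Hey2 and Kcnip2 had no reads in the lung-labelled library. Pln, the gene of phospholamban, had 2 reads there (1.66 RPKM) against 940 reads (736 RPKM) in the heart-labelled one. Irx4 and Hey2 had only 18 and 17 reads in the heart-labelled library, so their lack of reads says little. Kcnip2 had 183 there, the same as Mybphl, and for both a lack of reads does not exclude a low level. Kcnip2 also had 102 reads in the small-intestine-labelled library, and Hey2 had 12 in the kidney-labelled one.

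**Figure D4:**
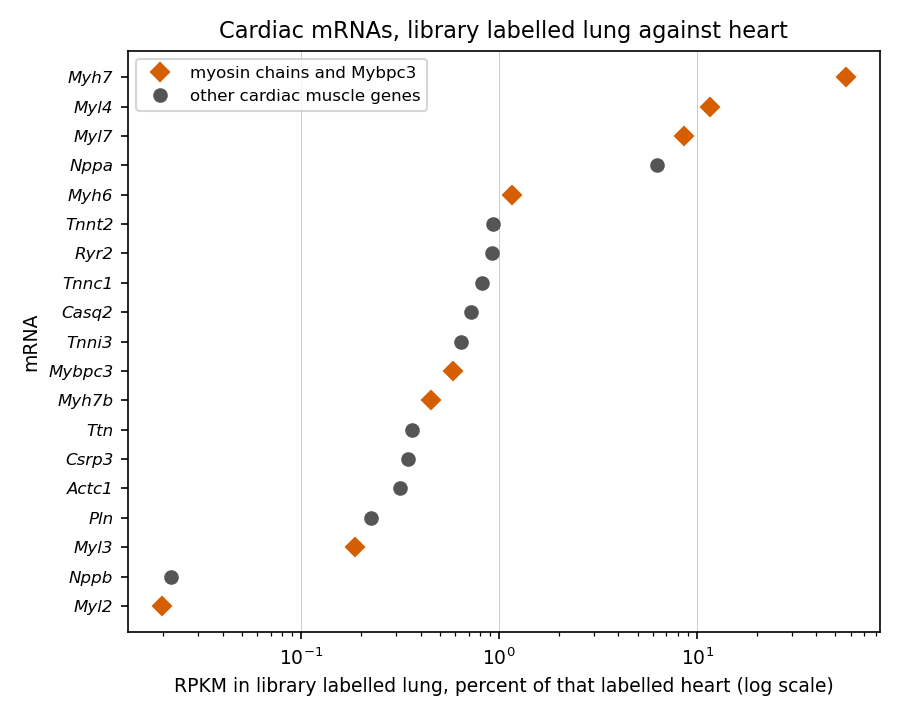
RPKM in the lung-labelled library as a percent of that in the heart-labelled library (log scale) for the 8 myosin and Mybpc3 mRNAs (diamonds) and the other cardiac muscle genes with reads in both (circles). Myh7 (56.3%), Myl4 (11.6%), Myl7 (8.55%) and Nppa (6.26%) lie to the right of the rest, and Myl2 (0.0198%) lies at the far left, next to Nppb (0.0219%).

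Some genes of fast skeletal muscle also had reads in the lung-labelled library. The 5 skeletal markers summed to 45.6 RPKM there, to 15.4 in the heart-labelled library, to 74.3 in the small-intestine-labelled one, where Pvalb, also a gene of neurons, gave 70.2 RPKM, and to between 0 and 6.05 in the other libraries. In the lung-labelled library Tnni2 had 20.8 RPKM, Tnnc2 20.5 and Tnnt3 4.28, while Actn3 and Pvalb had no reads. No gene particular to slow skeletal muscle, in which Myh7 is used, was in this list. Whether skeletal muscle cells had a part in the value of Myh7 was not tested.

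Other genes of the thick filament were described from a list by their role. Of the 6 other sarcomeric heavy chains, none was 10-fold higher in the heart-labelled library. The share was 1.04% over all mRNAs with at least 10 reads in any library, which is the background for each list below. A count of none in so short a list is near that share. Myh1, a fast skeletal heavy chain, had 8.18 RPKM there and at most 0.866 in any other library, from 39 reads, a fold of 9.45. Myh8, the perinatal chain, had 2.27 RPKM in the lung-labelled library and 1.20 in the heart-labelled one, and Myh4 had 1.36 RPKM in the lung-labelled library, from 61 reads. Each of these skeletal chains was below Myh7 in both libraries. They resemble one another in sequence, and their values are uncertain for that reason.

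Among the 7 other light chains none was past 10-fold in the heart-labelled library, but Myl1, known as the essential chain of fast skeletal muscle, had 554 RPKM there from 2556 reads, 85.3 in the lung-labelled one and 21.0 in the brain-labelled one, and no more than 4.21 elsewhere. Its level in the heart-labelled library was thus close to that of Mybpc3. Mylpf, its regulatory partner in fast muscle, had 1.21 RPKM in the heart-labelled library, from 5 reads, and 21.4 in the lung-labelled one. Myl6 had 280 RPKM in the heart-labelled library and 1857 in the lung-labelled one. Myl12b had no reads in any library, and it and Myl12a are known to be nearly alike in sequence, so that both values are uncertain.

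Of the 4 smooth and nonmuscle heavy chains, none was past 10-fold in the heart-labelled library. Myh11, the smooth muscle chain, had 25.9 RPKM there, against 1095 in the kidney-labelled library and 880 in the brain-labelled one. Myh9, a nonmuscle chain, had 61.3 RPKM in the heart-labelled library and 897 in the lung-labelled one. In the heart-labelled library both were far below Myh6. Myh9 was above Myh7, whereas Myh11 and Myh7 have no settled order, since Myh7 had 17.0 RPKM over its whole CDS and 26.4 over its unique positions.

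Of the 4 relatives of Mybpc3, only Mybphl was past 10-fold in the heart-labelled library, against 1.04% of all mRNAs. Mybphl, which is known from the atrium, had 21.0 RPKM there, from 183 reads, and a single read elsewhere. Mybpc2, the fast skeletal form, had 13.4 RPKM in the heart-labelled library and 4.59 in the lung-labelled one. Of the 6 genes of kinases and phosphatase subunits acting on the regulatory light chain, 2 were past 10-fold, against 1.04% of all mRNAs. These were the cardiac kinase Mylk3 with 196 RPKM and Mylk4 with 169 RPKM in the heart-labelled library. The smooth muscle kinase Mylk ran the other way, with 7.12 RPKM there against 209.7 in the brain-labelled library.

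All 4 genes of myosin folding and turnover were past 10-fold in the heart-labelled library, against 1.04% of all mRNAs. Unc45b, the chaperone of the myosin head, had 187 RPKM there and at most 0.477 elsewhere. Smyd1, a methyltransferase of sarcomere assembly, had 175 RPKM there and 7.48 in the lung-labelled library. The ubiquitin ligases Trim63 and Trim55 had 203 and 130.5 RPKM, 51.3-fold and 137-fold above the next library.

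The mRNAs whose profile over the 6 libraries was most like that of a member were found by Pearson's r of log2(RPKM + 1) among 10584 mRNAs with at least 10 RPKM in any library, the members left out. With 6 points and 1 library far above the rest, r describes the shape only and takes no account of the size of the change. For Myh6 they were Tnnt2 (r = 0.996), Ckmt2 (0.996), Tnni3 (0.994), Tcap (0.994) and Atp5mg (0.986). Ckmt2, the mitochondrial creatine kinase of striated muscle, had 1939 RPKM in the heart-labelled library and 24.3 in the lung-labelled one, whereas Atp5mg, a subunit of ATP synthase, had 369.8 and 119. For Myl7 they were Dag1 (0.993), Pm20d2 (0.985), Nppa (0.984), Hipk3 (0.982) and Lamb2 (0.982). Of these, Nppa had the fold nearest to that of Myl7, with 3306 RPKM in the heart-labelled library and 207 in the lung-labelled one. For Myh7b they were Fbxw4 (0.997), Gm826 (0.996), Mtg2 (0.996), Plaat1 (0.995) and Cdh2 (0.995), each second in the small-intestine-labelled library.

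Among the members themselves, r over the 6 libraries was highest for Myl3 with Mybpc3 (0.993) and lowest for Myh7 with Myl2 (0.525). Myl2 with Myl3 gave 0.970 and Myl4 with Myl7 gave 0.861, while Myl2 with Myl7 gave 0.723. All pairs share the high value of the heart-labelled library.

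The study in which these libraries were made dealt with codon usage, so the synonymous codons of the members were counted as well. The share ending in G or C was 79.2% in Myh6, 77.7% in Myh7 and 75.6% in Myh7b, against a median of 58.9% over all mRNAs, which placed the heavy chains at percentiles 97.2, 96.3 and 94.3. It was 72.8% in Myl7, 68.8% in Myl4, 65.8% in Myl3, 64.7% in Mybpc3 and 59.4% in Myl2. Their percentiles were 90.1, 80.7, 71.3, 67.6 and 51.4, in the same order. The atrial light chains were thus above their ventricular counterparts. All 8 members were above the median, Myl2 only just.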

How the data were processed

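Ribo-seq libraries of 6 tissues were used, 1 each. The authors deposited RPKM values per mRNA. By the study's methods and the submitters' processing notes, reads were trimmed with Cutadapt and mapped by STAR to 1 mRNA per gene, that of longest CDS (GRCm39, Ensembl release 107), without reads under 15 nt, multi-mapped reads or reads with more than 2 mismatches. These steps are written for other libraries of the study and were taken to hold here.

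RPKM times CDS length gave whole reads for 100% of values above 0 (tolerance 0.001 reads). Gene names, coordinates and sequences came from GENCODE M39 (GRCm39), in which 98.7% of mRNAs were found, and miRNAs from RefSeq. A position was unique when the window from 12 nt before it occurred once. In folds, a value under 3 reads was set to 3 reads. The members and lists were chosen with earlier results of these data known. All members were named, with the 5 mRNAs most like Myh6, Myh7b and Myl7 and lists by role. Ratios have exact Clopper-Pearson intervals. Alternatives covered length, total, pseudocount, depth, filter and fold. Recovery of reads and folds was tested on simulated data. The work was done in Python 3.11.15 (scipy 1.17.1, numpy 2.4.6, pandas 2.3.3; figures in matplotlib 3.10.9).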

Additional observations from a re-analysis of the deposited data

How the results depend on the processing

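No paired analysis was possible because each tissue had 1 library. Of the 100 alternatives, 86 stayed within the counting interval or, for counts, within 1.5 times. A turn of direction was defined only for the 45 alternatives of ratios and the 40 of folds, and none of these turned. Some of the 100 could not change their result, as given below for length. Counting the length over unique positions moved the ratio of regulatory light to heavy chains in the heart-labelled library to 2.17 with windows of 29 nt, 2.05 with 25 nt and 2.27 with 33 nt, and that of Mybpc3 to heavy chains to 0.0561, 0.0530 and 0.0586, by construction of the shorter length of Myh6 and Myh7. In the libraries labelled heart and lung, the ratios of Myh6 to Myh7, Myl2 to Myl7 and Myl3 to Myl4 stayed within their intervals under the alternatives run for them. The length alternatives could hardly move these ratios. Myl2 and Myl7 were unique throughout, Myl3 and Myl4 nearly so, and Myh6 and Myh7 lost nearly equal shares of their length. The only other alternatives for these ratios were those of pseudocount and depth. No alternative was run for these ratios in the other 4 libraries. Scaled as TPM, the fold of the heart-labelled library over the highest other was 71.97 for Myh6, 1.49 for Myh7, 2.52 for Myh7b, 106 for Myl3, 7.24 for Myl4 and 9.81 for Myl7, which left 4 members past 10-fold in place of 5, against 0.895% of all mRNAs. Without mitochondrially encoded mRNAs in the total it was 89.8 for Myh6 and 9.04 for Myl4. A threshold of 5-fold gave 6 members against 1.86% of all mRNAs, and the lung-labelled library as the only other (an alternative chosen after seeing the data) gave 6 against 8.76%. The count for the lung-labelled library was 3 throughout, against 5.85% of all mRNAs at 4-fold and 12.5% at 2-fold. Depth limits Myh7 in the colon-labelled library (3 reads), Myl2 in the lung-labelled one (14 reads) and Myh7b in those labelled brain and lung (3 and 2 reads).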

Other observations

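A low level of the cardiac genes ran through the colon-labelled library, which carried the kidney markers. The 7 members with reads there stood between 0.304% (Myl4) and 1.46% (Mybpc3) of their level in the heart-labelled library, with Myl2 at 0.650% and Myh6 at 0.624%. The 12 other cardiac muscle genes had a median of 0.854%, from 0.131% for Nppb to 4.25% for Pln. The ventricular chains led as in the heart-labelled library, with 113 RPKM of Myl2 against 21.1 of Myl7.

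In the kidney-labelled library, 6 members stood between 0.114% (Myh6) and 0.227% (Myl7) of the heart-labelled library, with Myh7 at 1.73% and Myh7b at 2.75% from 13 and 12 reads. In the small-intestine-labelled library the members spread widely, from 0.0414% for Myl2 to 2.48% for Myl4, 7.94% for Myh7 and 30.5% for Myh7b.

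Lung markers were found in the other direction, with 200 RPKM of Sftpc in the heart-labelled library against 39332 in the lung-labelled one. The source of these low levels was not tested.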
